A study of Homo sapiens with 18 samples.

Results

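HT55 is a colorectal cancer (CRC) cell line, and its single array was set against the arrays of the 17 other lines of its panel over all measured genes. The study's design text calls all 18 CRC lines, although HUTU80 is known as a line from the duodenum. It was taken by its cell line label, so 1 of 18 arrays is described, with 19774 genes measured and 13591 of them above the background level in at least 1 line. The series measured total RNA of these established cancer lines on a human expression array, 1 array for each line, under a title on molecular subtypes of CRC in models. HT55 was cultured in DMEM/F-12 medium with serum and antibiotics, as were OUMS23, HUTU80, SW48, CAR1, RKO, CL40, SW948, LS180 and SW1463. A further 8 lines, SNUC1, LS513, NCIH716, HCT116, MDST8, KM12, COLO320HSR and RCM1, were cultured in RPMI-1640 with serum, antibiotics, glucose and pyruvate. No line carries a treatment in the labels, and no subtype or genotype is given there. All values are log2 intensities, so 1 unit is a 2-fold difference in signal. With a single HT55 array there is no replicate error, a fault of that array and a property of the line cannot be told apart, and precision is limited by how many arrays there are.

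The WNT pathway holds stem cells at the base of the intestinal crypt in a dividing state. WNT ligands bind Frizzled receptors and LRP coreceptors at the cell surface, which stops the destruction complex of APC, AXIN and GSK3 from marking beta-catenin for degradation, and beta-catenin then joins TCF/LEF factors on DNA. Among the genes that this complex switches on are inhibitors of the pathway itself, such as AXIN2, RNF43 and NKD1, so their transcripts are widely used as a readout of the pathway. In most CRC the destruction complex is damaged by mutation, which keeps the pathway on without a ligand.

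Promoters of WNT feedback and target genes were searched for DNA that TCF/LEF factors are known to bind, the 7-letter words AACAAAG or ATCAAAG or TACAAAG or TTCAAAG on both strands, which do not overlap one another in a match. The windows of 300 bases, 250 before and 50 after each transcript start, came from RefSeq (GRCh38.p14), and 15 of the listed genes had at least 1 window there. Of their 20 windows 3 held a word (15.0%), against 4829 of all 35116 windows there, measured genes or not (13.8%). A match is a description of letters, and no match says only that these letters are not in this window. The 2 windows with more than 1 match are shown because their genes lay on opposite sides of the mean of the other lines in HT55. SP5, a transcription factor of the WNT response, was 2.58 above that mean. DKK1, a secreted WNT antagonist, was under background in HT55 (3.27) and in some other lines (difference -3.34). SP5 is at chr2:170715087-170715386 and DKK1 at chr10:52314031-52314330, both on the plus strand. Capitals mark the matches, read 5′ to 3′ on that strand, and a match that begins with CTTTG is the reverse strand form of a word.
SP5: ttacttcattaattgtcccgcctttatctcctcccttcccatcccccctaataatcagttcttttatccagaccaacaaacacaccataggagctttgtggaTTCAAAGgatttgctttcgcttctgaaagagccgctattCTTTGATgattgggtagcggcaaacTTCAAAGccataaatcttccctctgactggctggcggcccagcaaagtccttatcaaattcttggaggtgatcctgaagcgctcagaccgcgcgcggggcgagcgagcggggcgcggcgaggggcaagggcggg
DKK1: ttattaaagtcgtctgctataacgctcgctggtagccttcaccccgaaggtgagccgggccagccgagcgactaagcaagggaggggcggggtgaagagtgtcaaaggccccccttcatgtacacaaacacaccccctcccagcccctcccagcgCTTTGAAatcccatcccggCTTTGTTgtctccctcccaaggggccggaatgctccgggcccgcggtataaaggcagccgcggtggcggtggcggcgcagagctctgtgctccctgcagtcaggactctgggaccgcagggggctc

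The label was checked first. The epithelial and intestinal markers CDH1 (11.40), EPCAM (12.48), CDX2 (8.89), VIL1 (11.72), CDH17 (11.28) and KRT20 (11.999) were all well above the background level of 4.47 in HT55, with ranks of 1 to 5 among the 18 lines. The defining leukocyte markers PTPRC, CD3D, CD3E, CD2 and NKG7 lay between 3.03 and 3.56, the fibroblast markers COL1A1, COL3A1 and DCN between 3.21 and 4.37, and the endothelial markers PECAM1, CDH5 and VWF between 3.05 and 3.43, all under background. Of 14 measured leukocyte genes 5 passed background in some line, with a median difference of -0.60, and 2 did so in HT55: CORO1A, an actin regulator, at 6.50, against 4.25, 5.77 and 10.17 (lowest, median, highest) in the other lines, and LYZ, lysozyme, which gut epithelium also makes, at 4.85. WNT feedback genes as a list had their highest median of the 18 lines in HT55, and FZD10 was highest there. The name WNT-high did not cover every WNT gene, however. AXIN2 was 11.44 in HT55 and 11.44 in SW48, MYC and CCND1 lay inside the range of the panel, and most WNT ligands were under background. In bulk RNA fewer cells making a transcript and less transcript per cell cannot be told apart.

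Over all genes HT55 was neither the plainest nor the most distinct line. In HT55 556 genes (4.09% of 13591) were called higher, meaning at least 2 log2 units (4-fold) above the mean of the other 17 lines with HT55 above background, and 251 genes (1.85%) were called lower by the same distance with that mean above background. The same counts for each other line against its own 17 ran between 270 and 852 for higher genes (median 461) and between 124 and 784 for lower genes (median 276). HT55 was the highest line for 796 genes (5.86%), by a gap of at least 1 log2 unit to the nearest other line for 104 genes (0.765%) and of at least 3 units (8-fold) for 13 genes (0.0957%). Of 7348 genes above background in all 17 other lines, HT55 was lowest for 592 (8.06%), by a gap of 1 unit for 23 (0.313%) and of 3 units for 2 (0.0272%). The 104 genes placed HT55 at rank 7 of the 18 lines, whose other members had 12 to 297 such genes (median 52). Against the spread among the 17 lines, a limma fit over all 13591 genes called 59 genes higher (0.434%) and 8 lower (0.0589%) at an adjusted p under 0.05. That fit takes the lone HT55 array to vary like the others. For a single gene, permuting 1 line against 17 can give a 2-sided p no smaller than 0.111, counted by doubling the p for 1 direction.

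By overall profile HT55 was most like SW948, SNUC1 and LS513. Over 4899 variable genes (a range of at least 3 log2 units) its Pearson correlation was r = 0.805 with SW948, 0.804 with SNUC1 and 0.802 with LS513, then 0.79 with CL40, 0.78 with SW1463 and 0.77 with RCM1. It was lowest with HUTU80 (0.32) and MDST8 (0.30), and the median over all 153 pairs of lines was 0.54. These are correlations across genes between single arrays, given without a p, since genes are not independent.

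**Figure D1:**
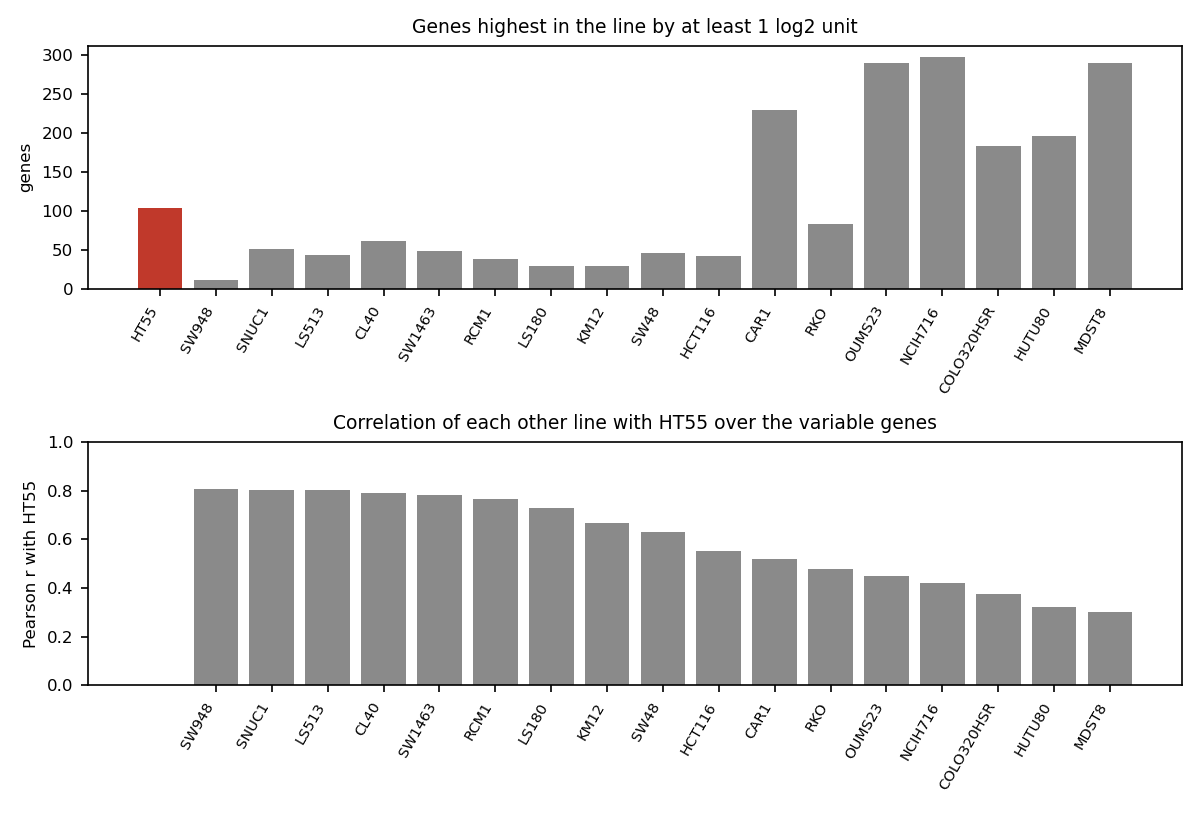
Upper panel: number of genes for which each line is highest by at least 1 log2 unit (bars from 0), HT55 in red with 104 genes, the others in grey ordered by likeness to HT55. Lower panel: Pearson r of each other line with HT55 over the 4899 variable genes, from 0.805 for SW948 down to 0.30 for MDST8.

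The gene that stood highest over its neighbours was GZMB, granzyme B, the serine protease that cytotoxic lymphocytes release into target cells, on chromosome 14. GZMB was 10.49 in HT55, against a lowest, median and highest value of 2.91, 3.11 and 4.93 in the other 17 lines (difference from their mean 7.24, SE 0.51, limma adjusted p = 5.17e-08). SW1463, the highest of the others, was the only one of them above background, and the groups did not overlap. GZMB is 1 of 15 measured cytotoxic lymphocyte genes, of which 5 passed background in some line and 3 in HT55. Their median difference in HT55 was 0.89, rank 2 of 18 after RCM1 (1.03). Of the 5, 4 lay above the mean of the other lines, beside 6032 of all 13591 genes. Only GZMB, already picked by its gap, was higher by 2 units, beside 4.09% of all genes. PRF1, the pore-forming perforin, was 4.76 in HT55, against 3.30, 3.55 and 8.12. GZMA, GNLY and NKG7 were under background in all 18 lines. SERPINB9, the intracellular inhibitor of granzyme B, was 6.47 in HT55, against 3.30, 5.04 and 8.40 in the other lines.

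FZD10, a Frizzled receptor for WNT ligands on chromosome 12, came next. FZD10 was 9.76 in HT55, against 2.76, 2.94 and 4.80 (lowest, median, highest) in the other lines (difference 6.69, SE 0.50, limma adjusted p = 1.32e-07). SW48, at 4.80, was the one other line above background. FZD10-AS1, an antisense RNA named from the same locus and chosen after its values were seen, was 4.90 in HT55, against 2.98, 3.26 and 3.68, and was thus above background in HT55 alone.

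CHI3L1, a secreted chitinase-like glycoprotein, was 8.35 in HT55, against 2.76, 3.03 and 3.43 (difference 5.30). Its second probe set gave a difference of 4.29, also with HT55 highest. All 17 other lines were under background for it, as they were for the probe sets used for CWH43, AQP8, CEACAM8 and 3 hair keratins. CWH43, a protein that remodels the lipid of membrane anchors, was 7.31 in HT55, against 2.70, 2.91 and 3.39. AQP8, a water channel of the surface colonocyte, was 7.31 in HT55, against 3.17, 3.59 and 3.87. CEACAM8, an adhesion molecule best known from granulocytes, was 7.13 in HT55, against 2.68, 3.06 and 3.59. The hair keratins KRT36, KRT37 and KRT38 lie close together on chromosome 17. They were 5.83, 6.40 and 6.79 in HT55, against highest values of 3.30, 3.80 and 3.37 in the other lines. A second probe set of KRT37 was under background in HT55 (3.43) and reached 5.18 in another line. Keratins are similar in sequence and a shared probe signal was not tested. FOXN1, a transcription factor that regulates hair keratin genes in mouse and was chosen after its values were seen, was 6.80 in HT55, against 3.06, 3.27 and 4.39.

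DLX5 and PAX7 encode transcription factors of development. DLX5, a homeobox factor of the skeleton and limb, was 7.79 in HT55, against 2.84, 3.15 and 4.78 (limma adjusted p = 6.6e-06). DLX6, its neighbour on chromosome 7, was 6.43, against 2.77, 2.96 and 4.85, and missed the limma threshold (adjusted p = 0.0722). Both lay above all other lines. PAX7, a factor of muscle stem cells, was 6.91 in HT55, against 2.93, 3.21 and 3.49, on 1 of 2 probe sets, the other being under background in every line. MSX1, a homeobox factor that answers to WNT and BMP signals, was 10.71 in HT55, against 3.92, 6.30 and 10.23, whereas its relative MSX2 was 4.87, against 3.93, 6.80 and 10.72. MSX1 was therefore highest in HT55 by a narrow gap and MSX2 was low there. DLX6, MSX1 and MSX2 were chosen after their values were seen.

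The other genes highest by the largest gaps were LRRC77P, a pseudogene (9.14 in HT55, against a highest other value of 5.01), MYL3, a myosin light chain of heart and slow muscle (7.57, against 4.39), GPR143, a receptor of pigment cell melanosomes (6.76, against 3.59), and TPRG1 (7.26, against 4.19). They were followed by NCKAP5, RIIAD1, the non-coding LOC101928881, PARVG, an adaptor of integrin signalling in blood cells, and C4BPA, a soluble inhibitor of complement. Of the 20 genes 13 had every other line under background, so they entered the fit through HT55 alone, and the limma values of genes chosen by their gap support nothing further. Of the 104 genes with a gap of 1 unit, 36 had a second probe set above background; all 36 gave the same sign and 32 had HT55 highest again.

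**Figure D2:**
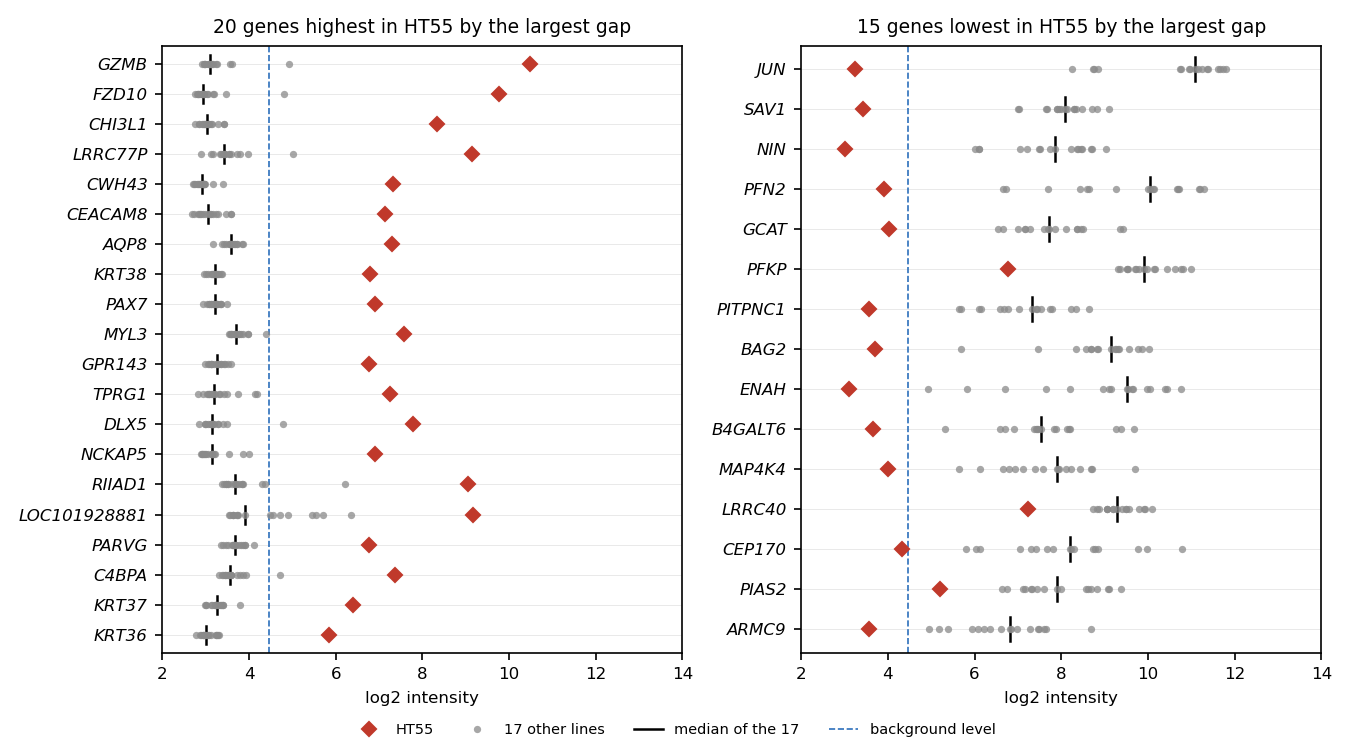
Log2 intensity (x) of the 20 genes highest and the 15 genes lowest in HT55 by the largest gap (y). Red diamonds are HT55, grey points the 17 other lines, black ticks their median and the dashed line the background level of 4.47; GZMB sits at 10.49 in HT55, against 4.93 or less in the others, and JUN at 3.24, against 8.24 or more.

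WNT receptors and coreceptors were next compared by role. Of 18 receptors above background in some line, 3 were higher by 2 units and 1 lower (4.09% and 1.85% of all genes), with a median difference of 0.85, the highest of the 18 lines, beside -0.08 over all genes. Besides FZD10 these were FZD7, a Frizzled receptor of intestinal stem cells, at 9.95 in HT55, against 4.08, 7.37 and 10.22, and LGR5, the R-spondin receptor that marks crypt stem cells, at 7.92, against 2.63, 4.47 and 9.90. FZD7 was exceeded by CAR1 and LGR5 by 3 lines. The coreceptor LRP6 was 9.25 in HT55, against 6.28, 8.32 and 9.04, and was highest there, and the kinase-like coreceptor PTK7 was 8.07, against 3.13, 6.53 and 8.03, while its second probe set was under background in HT55 (3.89) and reached 5.33 in another line. FZD5 at 9.97, FZD3 at 7.69 and LRP5 at 5.91 ranked second in HT55. FZD2 was the low member, at 2.99 in HT55, against 2.94, 4.99 and 8.65.

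WNT ligands did not share this. Of 17 measured ligand and carrier genes, 9 passed background in some line and 3 did so in HT55. The median difference of the 9 was -0.66, rank 17 of 18, mostly from values under background. It was -0.67 in KM12, -0.57 in LS180 and -0.55 in SNUC1, against 0.85 in COLO320HSR and 0.81 in CAR1. Of the 9 genes 0 were higher by 2 units and 1 was lower, beside 4.09% and 1.85% of all genes. The lower one was WLS, the carrier that WNT proteins need for secretion, at 6.59 in HT55, against 7.52, 8.58 and 10.79 (limma adjusted p = 0.752), below every other line. In HT55 2 ligands exceeded background, WNT11 at 5.91 and WNT5B at 4.60. WNT3 was 3.69, WNT10A 3.67, WNT10B 3.48 and WNT7B 4.12, all under background.

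The intracellular transducers did not separate HT55. Of 17 members of the destruction complex and its transducers 0 were called higher or lower, beside 4.09% and 1.85% of all genes. Their median difference was 0.02. CTNNB1, beta-catenin, was 11.51 in HT55, against 10.17, 11.15 and 11.82, APC 6.91, against 3.995, 7.29 and 8.17, and GSK3B 9.55, against 8.66, 9.13 and 10.08. BCL9, a coactivator of beta-catenin, was 5.55, against 3.93, 4.53 and 5.57, and DVL2, which relays the receptor signal, was 6.16, against 5.54, 7.27 and 7.93. TCF7L2, the main TCF of the gut, was 10.44 in HT55, against 8.82, 10.08 and 11.83, and LEF1 5.95, against 3.03, 6.46 and 10.68. Of these 8 TCF/LEF factors and TLE corepressors 0 were called. All of these values lay inside the range of the other lines.

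The feedback and target genes formed the clearest WNT group in HT55. Of 28 measured members, all above background in some line, 17 were higher by 2 units and 1 lower, beside 4.09% and 1.85% of all genes, with a median difference of 2.31. HT55 had the highest median of the 18 lines, the next being LS513 at 1.34. It was the highest line for 6 members, beside 5.86% of all genes. By the limma fit 0 of the 28 passed at an adjusted p under 0.05, since other lines also reach high values for most of them. Secreted and membrane inhibitors led. APCDD1, which blocks WNT at the cell surface, was 11.92 in HT55, against 3.95, 4.69 and 11.95, where COLO320HSR was the one line as high. WIF1, which binds WNT ligands, was 9.42, against 2.88, 3.07 and 9.77, again with COLO320HSR as the one line above HT55. NOTUM, which removes the lipid from WNT proteins, was 8.94, against 4.38, 4.75 and 8.07, and was highest in HT55.

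Intracellular feedback inhibitors followed. NKD1, which acts on Dishevelled, was 8.71 in HT55, against 3.87, 4.85 and 7.29, and its relative NKD2 was 8.83, against 5.35, 6.47 and 8.19. Both lay above every other line. AXIN2, the scaffold of the destruction complex, was 11.44, against 3.92, 9.33 and 11.44, a gap of under 0.01 over SW48, and all 4 of its probe sets placed HT55 first or second. RNF43, which removes Frizzled receptors from the membrane, was 9.57, against 3.06, 7.28 and 9.39, and ZNRF3, which does the same, was 9.31, against 5.03, 8.34 and 10.13.

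Transcription factors and stem cell genes of the list were mixed. PROX1, a homeobox factor, was 9.47 in HT55, against 3.93, 4.66 and 8.39, and was highest there, with a second probe set at a difference of 4.24. ASCL2, which maintains crypt stem cells, was 10.18, against 3.27, 7.08 and 10.37, TNFRSF19, a receptor of the TNF family, 8.70, against 2.83, 4.34 and 11.08, and EPHB3, which positions cells along the crypt, 7.87, against 3.75, 4.91 and 8.97. SP5 was 7.90, against 3.19, 4.92 and 8.61. General growth targets did not share this. MYC was 11.76, against 9.42, 11.58 and 13.09, CCND1, cyclin D1, 8.78, against 7.71, 9.36 and 10.68, CD44 9.89, against 3.08, 10.18 and 12.40, SOX9 9.84, against 3.38, 10.02 and 11.80, and SOX4 9.83, against 8.70, 10.49 and 11.06. Each of these lay near the middle of the panel or lower.

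Secreted antagonists and their coreceptors above background in some line numbered 12, with a median of -0.45. Of these 2 were higher, WIF1 and NOTUM, and 1 lower, DKK1, beside 4.09% and 1.85% of all genes. These 3 are feedback genes too. Of the 7 outside that list 0 were higher or lower by 2 units and 0 were above background in HT55. DKK1 was 3.27 in HT55, against 3.38, 4.69 and 12.79. It was under background in HT55 and in 8 of the other lines. SFRP1 (3.20), DKK3 (3.31), FRZB (3.17) and DKK4 (3.26) were also under background in HT55.

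**Figure D3:**
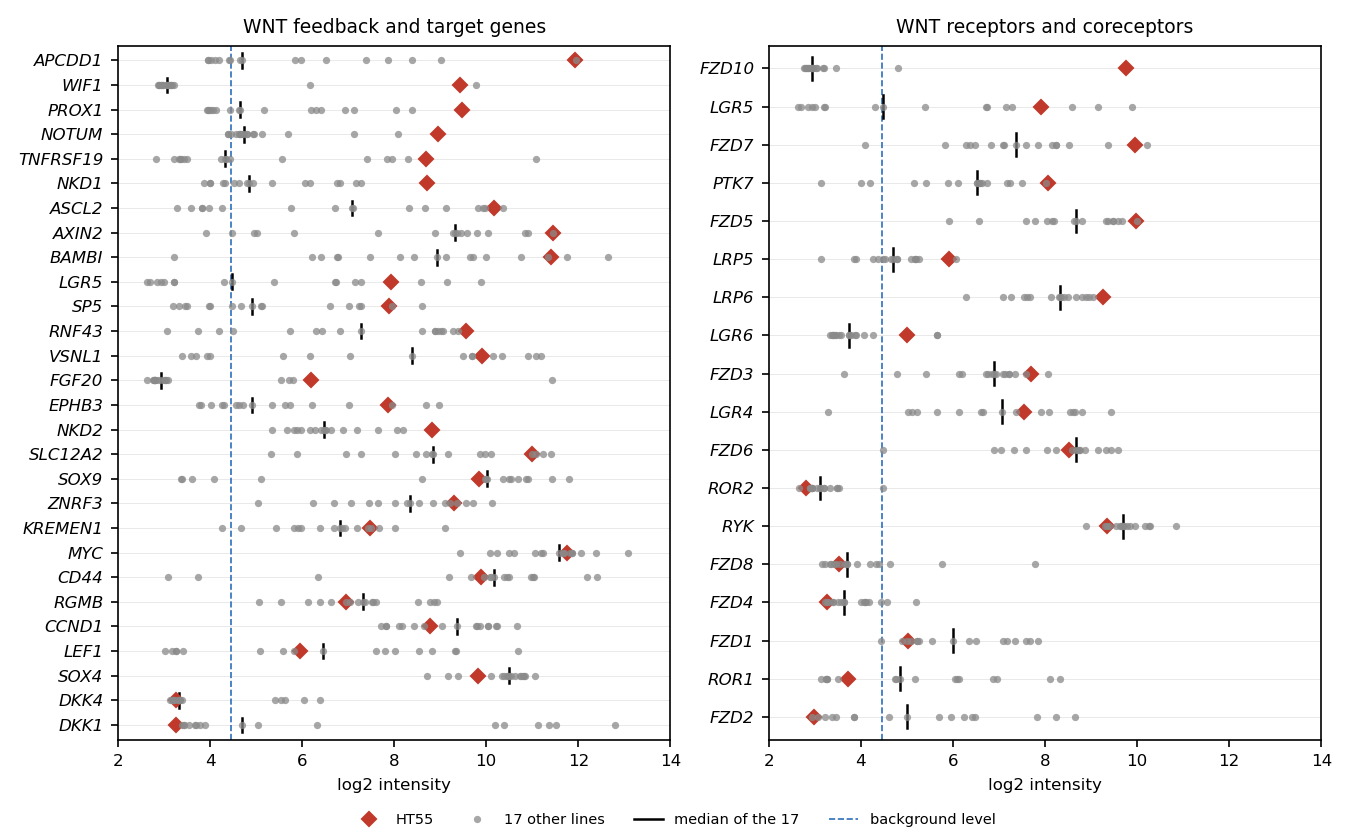
Log2 intensity (x) of the WNT feedback and target genes and of the WNT receptors and coreceptors above background in some line (y), sorted by the difference of HT55 from the mean of the other lines. Red diamonds are HT55, grey points the 17 other lines, black ticks their median and the dashed line the background level; most feedback genes from APCDD1 (11.92) to NKD2 (8.83) lie right of the median in HT55, while MYC, CCND1 and SOX4 lie inside the panel and DKK1 (3.27) at its left end.

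Of 15 crypt base stem cell genes above background in some line 6 were higher and 0 lower, beside 4.09% and 1.85% of all genes. Their median was 1.30, rank 5 of 18. The 6, LGR5, ASCL2, RNF43, EPHB3, AXIN2 and TNFRSF19, are also feedback genes or receptors named above, and 6 others lay below the mean of the other lines. OLFM4, a secreted stem cell marker, was 2.99 in HT55, against 2.80, 3.01 and 11.31, and PROM1, a surface marker, 4.78, against 3.16, 5.13 and 11.12.

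Genes of the absorptive colonocyte were compared next. Of 26 enterocyte brush border and absorptive genes above background in some line 12 were higher and 1 lower (4.09% and 1.85% of all genes), with a median difference of 1.05, rank 3 of 18 after SW1463 (2.69) and SNUC1. SLC26A3, the chloride and bicarbonate exchanger of the colon surface, was 12.73 in HT55, against 2.73, 3.07 and 10.25 (difference 8.71, limma adjusted p = 0.116). HT55 was highest, and 3 other lines exceeded background. FABP1, a fatty acid carrier, was 11.71, against 2.93, 3.37 and 13.02, KRT20 11.999, against 3.12, 4.63 and 12.34, and VIL1, which bundles actin in microvilli, 11.72, against 3.07, 6.42 and 11.65. The lower member was CA2, a carbonic anhydrase. SI, sucrase-isomaltase, MTTP and MEP1B, genes known from the small intestine, were under background in HT55.

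Epithelial ion transport genes had their highest median in HT55. Of 19 above background in some line 7 were higher and 1 lower, beside 4.09% and 1.85% of all genes. The median was 1.61, and the next line was LS180 at 1.19. SCNN1A, a subunit of the sodium channel ENaC, was 10.32 in HT55, against 2.93, 8.71 and 10.10. KCNE3, a potassium channel subunit, was 9.82, against 2.87, 3.83 and 10.14. GUCY2C, the gut receptor for guanylin, was 10.55, against 3.24, 4.10 and 9.49, and its ligand GUCA2A, guanylin, was 10.25, against 3.67, 4.20 and 8.85. Receptor and ligand were both highest in HT55, while the second ligand GUCA2B, uroguanylin, was under background at 4.14; these 3 genes were chosen after their values were seen.

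Intestinal transcription factors were also high in HT55, though several lines like it had medians about as high. Of 17 above background in some line 8 were higher and 0 lower, beside 4.09% and 1.85% of all genes. Their median was 1.85, rank 3 of 18, with 1.93 in CL40, 1.87 in SW948, 1.81 in LS513, 1.67 in SW1463 and 1.56 in SNUC1. RCM1 was at 0.71. CDX1, a homeobox factor of the gut, was 9.25 in HT55, against 3.88, 4.83 and 9.24, level with SW1463. ELF3, an epithelial ETS factor, was 10.91, against 2.64, 8.39 and 10.45, and FOXA3, a forkhead factor, 7.85, against 3.60, 5.26 and 7.68. ISX, an intestinal homeobox factor, was 7.22, against 2.85, 3.27 and 7.34. CDX2 was 8.89, against 4.28, 7.02 and 11.44.

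**Figure D4:**
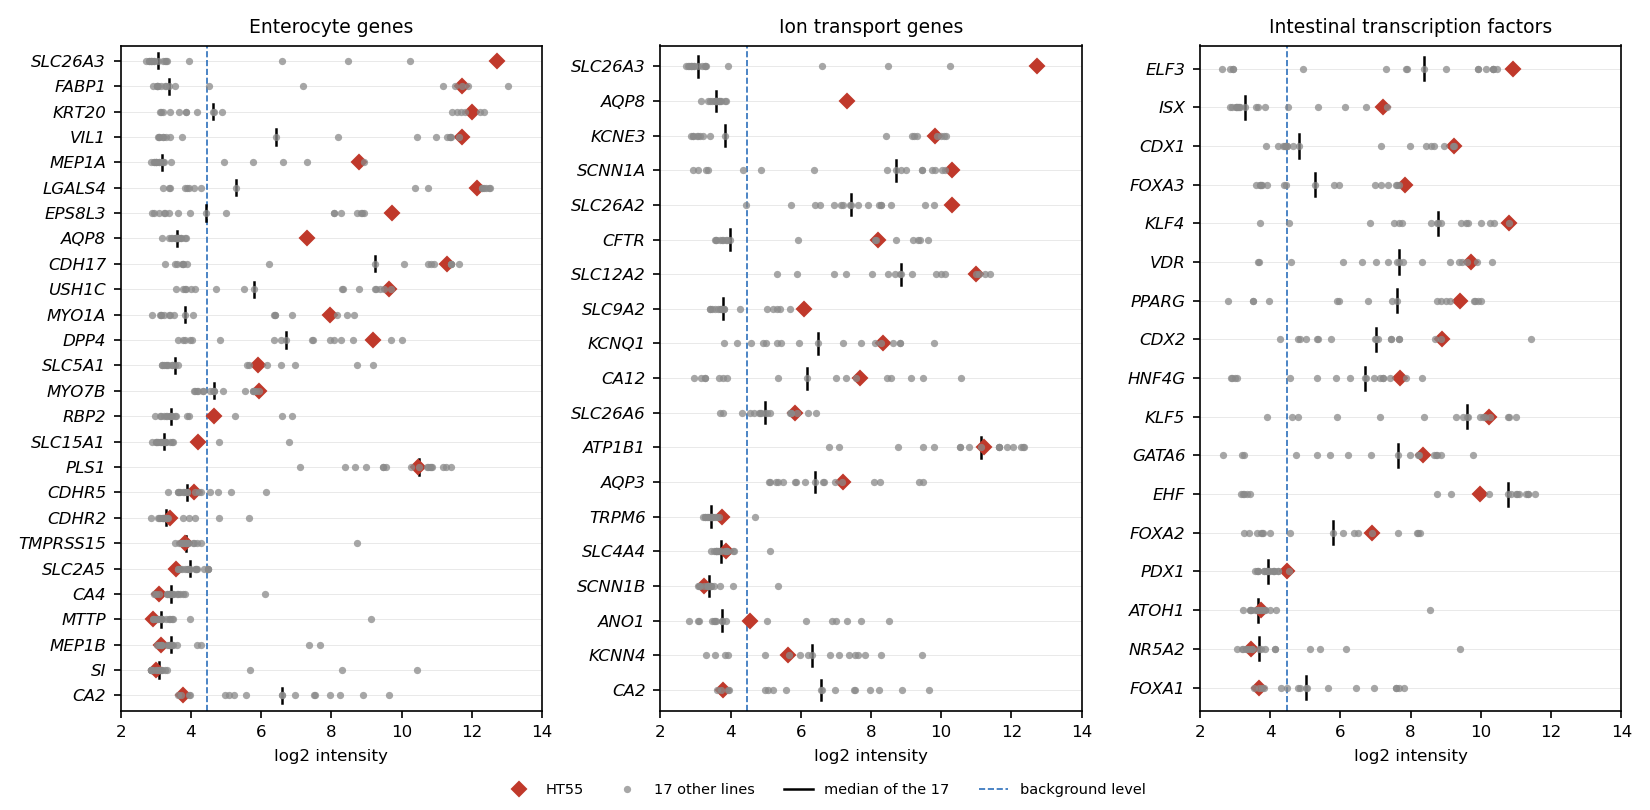
Log2 intensity (x) of enterocyte genes, ion transport genes and intestinal transcription factors above background in some line (y), sorted as in the plot of WNT genes. Red diamonds are HT55, grey points the 17 other lines, black ticks their median and the dashed line the background level; SLC26A3 reaches 12.73 in HT55, against 10.25 or less in the others, while SI and MTTP stay under background.

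The CEACAM family, surface glycoproteins of the colon epithelium, had all 5 members that passed background higher by 2 units, beside 4.09% of all genes. Their median was 4.08, rank 2 after CL40 (4.12), with 3.84 in SNUC1, 3.38 in LS513 and 0.84 in SW948. CEACAM5, the carcinoembryonic antigen, was 12.04 in HT55, against 3.24, 4.09 and 12.26, CEACAM6 11.01, against 3.49, 7.11 and 12.05, and CEACAM7 8.86, against 3.21, 3.69 and 8.37. CEACAM7 and CEACAM8 were highest in HT55. Family members share sequence, so how far their signals are separate was not tested. Of 26 epithelial junction genes 10 were higher and 0 lower, beside 4.09% and 1.85% of all genes (median 1.79, rank 3). The junction median was 1.77 in SNUC1, 1.73 in LS513 and 1.30 in SW948. Of 24 mesenchymal genes 2 were higher and 6 lower, beside 4.09% and 1.85% of all genes. Their median was -0.85, rank 13 of 18, with -1.09 in SW948, -0.94 in SNUC1, -0.68 in LS513 and 4.17 in MDST8. CALD1, an actin-binding protein, was 2.73 in HT55, against 2.74, 6.30 and 10.82. The 2 higher members were TGFBI, a secreted matrix protein, at 12.11, against 3.28, 9.49 and 12.91, and TWIST1, a mesenchymal transcription factor, at 6.57, against 2.64, 3.01 and 9.43.

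Notch, BMP and growth factor genes also held some high members. Of 18 Notch genes above background in some line 4 were higher and 0 lower, beside 4.09% and 1.85% of all genes, with a median of 0.08. They were NOTCH1, a receptor, at 9.11 in HT55, against 5.26, 6.21 and 7.36 (limma adjusted p = 0.0488), and its targets and modifiers HES1 at 12.28, against 3.35, 9.71 and 11.93, NRARP at 10.39, against 4.37, 7.97 and 9.31, and LFNG at 8.87, against 3.65, 7.21 and 8.81. All 4 were highest in HT55. HES5, another target, which was outside the list and chosen after its values were seen, was 7.40, against 3.16, 3.37 and 5.28 (limma adjusted p = 0.000418). Of 21 BMP pathway genes 6 were higher and 1 lower, beside the same shares (median 0.73, rank 2), among them BMP7, a ligand, at 9.53, against 3.83, 7.37 and 10.60, ID4, an inhibitor of basic helix-loop-helix factors, at 8.48, against 2.85, 3.18 and 10.36, and SMAD7, an inhibitor of the pathway, at 8.86, against 3.32, 5.99 and 9.44. ERBB3, a receptor for neuregulins, was 11.13, against 3.02, 9.06 and 10.97, and FGFR3 was 9.35, against 3.37, 7.25 and 8.16, both highest in HT55. Of 10 ERBB receptors and ligands 1 was higher and 0 lower, beside the same shares (median -0.08). Of 17 other receptor tyrosine kinases 2 were higher and 1 lower, beside the same shares. Their median was 0.60, rank 2 of 18 after SW948 (0.71). FGFR2 was low, at 3.46, against 3.10, 5.61 and 10.30, while its second probe set gave a difference of 0.51.

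**Figure D5:**
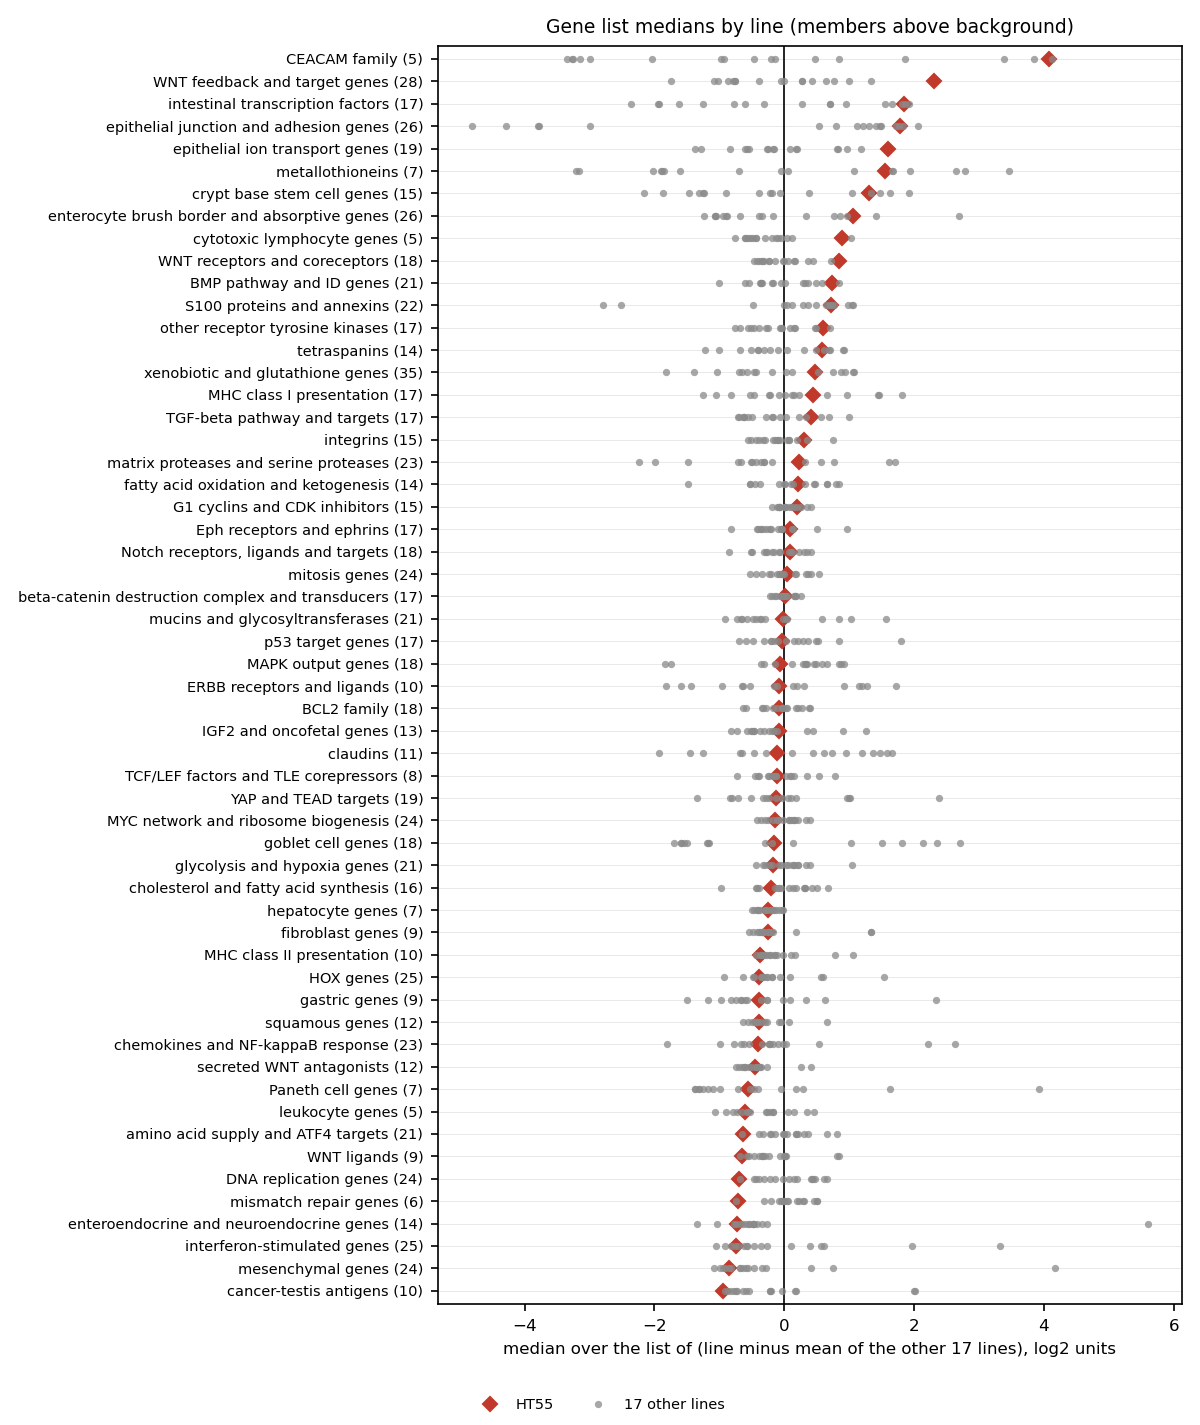
Median over each gene list (y, members above background in brackets) of the difference between a line and the mean of its other 17 lines in log2 units (x), HT55 in red and the 17 other lines in grey. HT55 is the highest line for the WNT feedback and target genes (2.31), the WNT receptors (0.85) and the ion transport genes (1.61), and the lowest for the DNA replication genes (-0.70) and the cancer-testis antigens (-0.95); lists with under 5 members above background are not drawn.

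JUN, a subunit of the AP-1 transcription factor on chromosome 1, was the gene lowest by the largest gap. JUN was 3.24 in HT55, against 8.24, 11.09 and 11.81 in the other 17 lines (difference -7.41, SE 1.15, limma adjusted p = 0.00153). HT55 was under background and all 17 others were far above it. All 3 JUN probe sets placed HT55 lowest, the second with a difference of -6.23. The AP-1 genes FOS, FOSB, JUNB and JUND, chosen after their values were seen, did not follow. FOS was 11.69 in HT55, against 5.69, 10.51 and 11.72, FOSB 8.46, against 4.14, 6.92 and 8.40, JUNB 9.04, against 4.42, 7.34 and 8.49, and JUND 11.01, against 8.86, 10.05 and 10.69. FOSB, JUNB and JUND were highest in HT55 and FOS second. FOSL2 was 9.30 in HT55, against 3.98, 7.76 and 9.76, and FOSL1 was 6.93, against 3.71, 7.26 and 9.41. BATF3, a member of the wider AP-1 family, was 3.60 and under background in HT55, against 3.81, 4.71 and 8.40, below every other line.

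SAV1, a scaffold of the Hippo growth control pathway on chromosome 14, was 3.43 in HT55, against 6.9996, 8.09 and 9.09 (difference -4.64, SE 0.58, limma adjusted p = 9.35e-05), and all 3 of its probe sets placed HT55 lowest. NIN, ninein of the centrosome, its neighbour in the gene order, was 3.01, against 6.0005, 7.86 and 9.03 (difference -4.71, SE 0.95, limma adjusted p = 0.0218). Both genes were under background in HT55 and above it in every other line. Nearby, MAP4K5 was 6.89, against 7.03, 7.94 and 8.81, and ATL1 3.41, against 3.32, 4.17 and 7.25. ABHD12B on the far side of NIN was 2.81 in HT55, against 2.93, 3.09 and 9.73, so most other lines were under background too. CDKL1 beyond MAP4K5 differed by -0.04 from the mean of the other lines. Some other Hippo genes, not the whole pathway, were present. They were the kinases STK3 at 8.73, STK4 at 9.32 and LATS1 at 8.35 and their partner MOB1A at 10.39, of which LATS1 was highest in HT55. Targets of the Hippo effectors YAP and TEAD had 1 member higher and 1 lower of 19, beside 4.09% and 1.85% of all genes. Their median was -0.13. The Hippo genes and neighbours other than SAV1 and NIN were chosen after their values were seen.

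The other genes lowest by the largest gaps followed. PFKP, the platelet form of phosphofructokinase in glycolysis, was 6.78 in HT55, against 9.30, 9.91 and 11.0003 (difference -3.24, SE 0.54, limma adjusted p = 0.00325). GCAT, a mitochondrial enzyme of threonine breakdown, was 4.03, against 6.55, 7.71 and 9.42 (limma adjusted p = 0.046). BAG2, a regulator of the HSP70 chaperone, was 3.70, against 5.70, 9.14 and 10.03 (limma adjusted p = 0.0152). PFN2, a profilin, was 3.91, against 6.65, 10.05 and 11.29, and ENAH, which elongates actin filaments, was 3.11, against 4.92, 9.52 and 10.77; neither passed the limma threshold (adjusted p = 0.152 and 0.231). PITPNC1, B4GALT6, MAP4K4, LRRC40, CEP170, PIAS2 and ARMC9 completed the 15, of which LRRC40 passed (limma adjusted p = 0.02) with a second probe set of opposite sign (0.16). THUMPD3, the eighth gene that the fit called lower, was 7.20, against 8.58, 9.07 and 9.87 (limma adjusted p = 0.0159). Of the 23 genes lowest by 1 unit, 19 had a second probe set above background, 18 with the same sign and 16 with HT55 lowest again.

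Genes of DNA replication had their lowest median in HT55. Of 24 members 0 were called higher or lower by 2 units, beside 4.09% and 1.85% of all genes. In HT55 19 lay below the mean of the other lines and 6 were lowest, beside 7559 and 887 of all 13591 genes. The median was -0.70, next to CL40 at -0.68. MCM5, part of the helicase that opens DNA for copying, was 7.39 in HT55, against 7.52, 8.75 and 9.84, CDC45, its partner, 7.47, against 7.93, 8.63 and 9.68, and CCNE1, cyclin E1, 5.08, against 5.24, 6.33 and 8.57. Genes of mitosis did not share this (median 0.05): TOP2A, which untangles chromosomes, was 11.57, against 10.10, 11.15 and 11.55, and MKI67, a marker of dividing cells, 10.18, against 7.93, 9.57 and 10.57. Of 21 genes of amino acid supply and ATF4 targets 0 were higher and 2 lower, beside 4.09% and 1.85% of all genes. Their median was -0.64, rank 17. PHGDH, the first enzyme of serine synthesis, was 5.89, against 4.41, 8.57 and 10.34, SESN2, a stress sensor, 3.70, against 4.76, 5.73 and 7.62, and ASNS, asparagine synthetase, 9.04, against 9.33, 10.53 and 11.45. SESN2 and ASNS were lowest in HT55. Of 10 cancer-testis antigens 0 were higher and 2 lower in HT55, beside the same shares of all genes. Their median was -0.95, rank 18, close to KM12 (-0.91) and far from COLO320HSR (2.02). The lower genes were MAGEA12 and MAGEA6, and MAGEA6 was 4.51 in HT55, against 3.20, 4.08 and 12.05, so it lay above the median of the other lines and below their mean.

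Against the 3 lines most like it, SW948, SNUC1 and LS513, HT55 had 296 genes at least 2 units above their mean (2.63% of 11276 genes) and 244 below (2.16%). The largest differences upward were SLC26A3 (7.27), GZMB (7.01), FZD10 (6.80), H19 (6.79) and PMEPA1 (6.59). H19, an imprinted non-coding RNA of fetal tissue, was 10.95 in HT55, against 3.03 in SW948, 6.06 in SNUC1 and 3.39 in LS513, and NCIH716 was the one line of the whole panel as high (10.95). PMEPA1, a feedback inhibitor of TGF-beta signalling, was 11.42 in HT55, against 3.26 in SW948, 6.46 in SNUC1 and 4.77 in LS513. SLC26A3 in SNUC1 was 10.25, so that difference came mainly from SW948 (3.30) and LS513 (2.82). The largest differences downward were JUN (-8.26), SPINK4, a product of goblet cells (-6.33), TRIP6, an adaptor of focal adhesions (-6.08), ZIC2, a zinc finger factor (-5.67), and LYZ, lysozyme (-5.64). SPINK4 was 3.14 in HT55, against 10.08 in SW948, 6.13 in SNUC1 and 12.20 in LS513, and LYZ was 4.85, against 11.51, 8.86 and 11.09 in these lines. TRIP6 was 3.28 in HT55, against 9.87, 9.27 and 8.94. SPINK4 and LYZ were thus low in HT55 and high in its most similar lines. Over the whole panel, however, the 18 goblet cell genes had a median of -0.16. Of them 4 were higher and 2 lower, beside 4.09% and 1.85% of all genes.

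Neighbouring genes that differed the same way were listed along the gene order of GRCh38.p14, as runs in which at least 4 of 5 neighbours differed by 1 unit or more. Only genes above background in at least 1 line were placed in that order, so other genes can lie between these neighbours. HT55 had 34 higher runs, against 15 to 60 in the other lines (median 24), and 14 lower runs, against 4 to 54 (median 12). On chromosome 11 KCNQ1 (difference 1.68), its antisense RNA KCNQ1OT1 (2.30) and CDKN1C, an inhibitor of the cell cycle (2.90), were higher together; CDKN1C was 8.78 in HT55, against 3.64, 6.10 and 8.42. On chromosome 12 LGR5 (2.61) and the tetraspanin TSPAN8 (3.88) shared a run, and on chromosome 17 KRT36 to KRT38 lay in one with KRT19 (2.85). The longest, of 16 genes on chromosome 17, ran from P2RX5 to LINC01996, with 12 of its genes higher by 1 unit or more. Chromosome 20 held 5 higher runs, with PCK1, which makes glucose precursors (5.32), PMEPA1 (5.23), CTSZ, a lysosomal protease (3.77), and BCAS1 (3.90). It also held lower runs, from NXT1 (-1.16) to CST1 (-1.42) and from PKIG (-2.43) to TOMM34 (-1.30), and the median over its 365 genes was -0.27. Chromosomes 6 and 17 held several higher runs too.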

How the data were processed

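Total RNA of 18 established lines was extracted with an AllPrep kit and hybridised to 1 array a line, per the labels. The deposited log2 intensities were summarised by RMA with affy, as the submitters' processing notes name it, with no version stated. RMA corrects background, quantile-normalizes and summarises probe sets, so array medians lay between 3.65 and 3.69 and a shift of all genes in one line cannot be seen.

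Of 54613 probe sets 40914 named 1 gene in the platform annotation, 864 several and 12835 none, and those with several or none were left out. Symbols and chromosomes were updated through 40858 matches to RefSeq (GRCh38.p14). Each gene was represented by its probe set of highest mean, giving 19774 genes. The background level, 4.47, is the 95th percentile over 88 probe sets of 49 genes not expected in colon, 5 of which exceeded 8 in some line. HT55 had 10148 genes above it, against 9815 to 10365 in the other lines. Second probe sets differed from the first by a median SD of 0.37 over 6832 genes. Second probe sets under background in every line, as for PAX7, FOXN1, NOTCH1, PFKP, BAG2, TRIP6, CEACAM5, ASNS and CCNE1, bear on no difference and are not printed.

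HT55 was compared with the mean of the 17 other lines, and called at 2 log2 units or at a gap of 1 or 3 units to the nearest line. The limma fit (lmFit and eBayes with trend, Benjamini-Hochberg over 13591 genes, adjusted p under 0.05) measures spread among lines and not replicate error. The fitting script was checked on simulated data. Named were AXIN2, FZD10, GZMB, the 20 genes highest and 15 lowest by the largest gap, WNT genes, per list the 4 members farthest from the other lines, and 5 genes a direction against the 3 most similar lines, without Y-linked genes and XIST. Other named genes, among them the AP-1, Hippo and Hedgehog genes, were chosen after their values were seen. The members and lists were chosen with earlier results of these data known. Alternatives changed the probe set rule, scaling, background level, lines compared, centre, thresholds and limma settings. Python 3.11.15, numpy 2.4.6, pandas 2.3.3, matplotlib 3.10.9, R 4.3.3 and limma 3.58.1 were used.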

Additional observations from a re-analysis of the deposited data

How the results depend on the processing

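Scaling the arrays to one median, a background level of 4.5, no background filter, the probe set of largest SD and both other limma settings moved no count past 1.5 times. With the mean of all probe sets, 131 genes were lower by 2 units, 10 were lowest by 1 unit and limma called 4 lower. Against the 9 other DMEM/F-12 lines, where fewer lines bound each gap, HT55 was highest by 1 unit for 188 genes and by 3 units for 24, lowest for 63 and 5, and limma called 5 lower. At a background level of 6, which tests fewer genes, 12 were lowest by 1 unit and limma called 33 higher. A difference of 3 units left 222 higher and 79 lower genes, and a gap of 2 units 33 highest and 7 lowest. Against the median of the other lines the enterocyte median was 1.66, and MAGEA6, a cancer-testis antigen with a few high lines, turned to 0.42, against -2.77 from their mean. Leaving out 1 line at a time gave 512 to 595 higher and 237 to 277 lower genes, 104 to 121 highest and 23 to 33 lowest by 1 unit, and 13 to 18 highest by 3 units. The genes lowest by 3 units numbered 2 to 4, with 4 without SNUC1. In those fits limma called 55 to 71 higher and 7 to 11 lower, and the medians ran 2.21 to 2.44 for WNT feedback and target genes and 0.98 to 1.22 for enterocyte genes. Of the 387 named genes, 363 moved by less than 0.37, the median SD between probe sets of a gene, with the probe set of largest SD, 300 against DMEM/F-12 lines, 253 with the mean of all probe sets and 207 with the median of the other lines, where 179 moved further and MAGEA6 reversed. Of the 57 lists 56, 52, 50 and 42 moved by less than that. Spearman correlation and a range of 2 units named the same 3 most similar lines. No paired analysis was possible because each line was measured on 1 array. Signals under background have no order, so differences from lines under it are not ratios of transcript amounts.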

Other observations

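The Hedgehog genes given here were chosen after their values were seen. SHH, a secreted Hedgehog ligand, was 7.53 in HT55, against 2.97, 3.63 and 6.49 (lowest, median, highest) in the other 17 lines (limma adjusted p = 0.0425). IHH, the ligand of the mature colon epithelium, was 7.72 in HT55, against 3.11, 3.59 and 6.68 (limma adjusted p = 0.493). PTCH1, the Hedgehog receptor, was 10.16 in HT55, against 5.77, 7.78 and 8.89. These 3 genes lay above every other line, whereas the pathway's transcription factors GLI1 (3.41) and GLI2 (3.27) and its inhibitor HHIP (2.96) were under background in HT55.

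The inhibitors of complement given here, all but C4BPA, were chosen after their values were seen. C4BPA and CD55 were higher by 2 units and C4BPB and CD46 were not, beside 4.09% of all genes. All of them lay in a single higher run on chromosome 1, and inhibitors outside that run are not given. C4BPA was 7.37 in HT55, against 3.32, 3.57 and 4.73, and its partner chain C4BPB was 5.84, against 3.08, 4.08 and 8.66. CD55, which breaks up complement convertases, was 10.84 in HT55, against 3.32, 9.17 and 10.35, and CD46, a cofactor for their cleavage, was 11.90, against 9.15, 10.74 and 11.92. C4BPA and CD55 were highest in HT55 and CD46 second. IL15, a cytokine that sustains lymphocytes and was also chosen after its values were seen, was 9.59 in HT55, against 2.996, 4.83 and 7.92, above every other line. Of 35 xenobiotic and glutathione genes 8 were higher and 5 lower in HT55, beside 4.09% and 1.85% of all genes (median 0.47). GPX2, a gut glutathione peroxidase, was 11.92 in HT55, against 2.89, 5.53 and 12.53, while GPX8, a relative in the endoplasmic reticulum, was 2.78, against 2.80, 7.51 and 9.98.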
